A study of Mus musculus with 33 samples.

Results

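The genes described here are 10 markers of Kupffer cells, the resident macrophages of the liver, and of macrophages in general. They are C1qa, C1qb, C1qc, Clec4f, Cd5l, Vsig4, Marco, Timd4, Cd68 and Adgre1, and they were chosen by name from the 25988 genes of the count table. They were measured in livers of male C57BL/6J mice with a floxed G6pc gene, which encodes the catalytic subunit of glucose-6-phosphatase. L-G6pc-/- mice carry a tamoxifen-inducible Cre recombinase in the albumin locus, which is active in hepatocytes, so the deletion is made in hepatocytes and not in macrophages. L-G6pc+/+ mice are floxed littermates without Cre. Mice of both genotypes received an AAV vector with a short hairpin RNA against ChREBP (shChREBP) or a scrambled hairpin (shSCR), at an age of 13 to 18 weeks, and then tamoxifen. The livers were collected in the nonfasted state 10 days after the last tamoxifen dose. With shSCR there were 8 libraries of L-G6pc+/+ (s1 to s8) and 8 of L-G6pc-/- livers (s17 to s24), and with shChREBP there were 8 of L-G6pc+/+ (s9 to s16) and 9 of L-G6pc-/- livers (s25 to s33). The labels do not say that each library is a separate mouse, so n counts libraries and the p-values measure the spread between these libraries.

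Kupffer cells sit in the liver sinusoids, where they take up bacteria, dying cells and debris from the blood, and they are maintained locally by signals from hepatocytes, stellate cells and endothelial cells. C1qa, C1qb and C1qc encode the chains of C1q, the recognition component of the classical complement pathway, which macrophages rather than hepatocytes produce. Clec4f, Vsig4, Marco and Timd4 encode surface receptors of resident macrophages and Cd5l encodes a protein that they secrete, whereas Cd68 and Adgre1 (which encodes F4/80) mark macrophages more broadly. When resident Kupffer cells are lost, monocytes can enter the liver and take on parts of this programme, and Timd4 is among the genes that such newcomers gain late.

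The 3 C1q genes lie side by side on the minus strand of chromosome 4 of GRCm38, from 136880129 to 136898803, and the annotation (GENCODE M21) holds no other gene in this span of 18.7 kb. C1qb lies from 136880129 to 136886187, C1qc from 136889804 to 136893065 and C1qa from 136895917 to 136898803. Clec4f lies on chromosome 6 from 83644542 to 83656187, Cd5l on chromosome 3 from 87357881 to 87371073, and Vsig4 on the X chromosome from 96247203 to 96293438. Marco lies on chromosome 1 from 120474538 to 120505024 and Adgre1 on chromosome 17 from 57358691 to 57483527. Timd4 (46810800 to 46844332) and Cd68 (69664213 to 69666153) both lie on chromosome 11. None of the 10 overlaps another annotated gene. Whether reads also match similar sequences elsewhere was not examined.

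The promoters of C1qc, Clec4f and Cd5l are shown because these 3 genes passed a test below, lie in separate places of the genome and have an entry in the promoter table used here. The windows run from 250 bases before to 50 bases after the start of the RefSeq transcript (GRCm38.p6), 5′ to 3′ on the strand of the gene, at chr4:136892865-136893164 (minus) for C1qc, chr6:83656067-83656366 (minus) for Clec4f and chr3:87357631-87357930 (plus) for Cd5l. Capitals mark matches to 2 of 3 motifs searched on both strands. These are GAGGAAGT, a site of the macrophage factor PU.1 and its relatives, and AGAGGAA, a shorter purine-rich motif that overlaps it where an A precedes the longer one. The third is TGAGTCA, the AP-1 site.
C1qc: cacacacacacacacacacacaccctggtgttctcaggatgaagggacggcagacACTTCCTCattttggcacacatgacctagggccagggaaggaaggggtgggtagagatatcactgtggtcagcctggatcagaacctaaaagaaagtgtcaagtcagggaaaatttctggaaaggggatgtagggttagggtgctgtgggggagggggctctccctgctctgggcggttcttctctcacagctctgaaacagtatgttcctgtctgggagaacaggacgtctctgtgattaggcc
Clec4f: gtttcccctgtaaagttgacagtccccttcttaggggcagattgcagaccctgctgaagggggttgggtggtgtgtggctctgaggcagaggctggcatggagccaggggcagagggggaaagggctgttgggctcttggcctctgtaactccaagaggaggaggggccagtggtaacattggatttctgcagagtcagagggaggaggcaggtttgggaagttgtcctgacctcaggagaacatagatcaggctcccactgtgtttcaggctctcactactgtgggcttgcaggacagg
Cd5l: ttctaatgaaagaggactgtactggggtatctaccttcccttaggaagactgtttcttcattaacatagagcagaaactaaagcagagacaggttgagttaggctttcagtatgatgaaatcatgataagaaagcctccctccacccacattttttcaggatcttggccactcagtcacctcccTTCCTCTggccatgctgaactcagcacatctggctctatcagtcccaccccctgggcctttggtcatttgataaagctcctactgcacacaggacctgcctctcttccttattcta

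In C1qc the match is ACTTCCTC, the reverse of GAGGAAGT, and it begins 195 bases before the start. Of 32851 mouse promoters in the table, 3.20% hold this motif. In Cd5l the match is TTCCTCT, the reverse of AGAGGAA, which begins 66 bases before the start and is held by 10.4% of the promoters. The Clec4f window holds none of the 3. Of the 8 markers with a promoter in the table, Marco and Cd68 also hold AGAGGAA, and Cd68 alone holds TGAGTCA (5.20% of all promoters). These are matches of letters and not measured sites.

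Total counts ran from 1497843 to 3546852 per library. Mlxipl, the gene for ChREBP, fell with shChREBP from 535 ± 57.5 to 366 ± 49.9 CPM (the count as a share of the TMM-scaled library total; SD, n = 8 and 8) in L-G6pc+/+ livers. It fell from 574 ± 45.4 to 386 ± 112 CPM (SD, n = 8 and 9) in L-G6pc-/- livers. The reads come from 3′ ends, so the G6pc count does not check the deletion. In a principal component analysis of all genes, s29, s30, s32 and s33, which are 4 of the 9 shChREBP/L-G6pc-/- libraries, stood apart from their group on the first component, at -35.6 to -26.8 against -7.70 to 1.47 for the other 5. The shChREBP/L-G6pc+/+ libraries ran from -21.2 to 8.56, with s13 (-21.2) and s9 (-19.8) nearest to the 4. Mlxipl lay at 216 to 359 CPM in the 4 libraries against 441 to 500.4 CPM in the other 5. Results that rest on the 4 libraries are given with and without them.

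All 10 markers passed the filter on low counts, which kept 10179 genes, and none had a count of 0 in any library. Their counts ran from 5 (Cd68) to 3208 (Cd5l) per library, so counting error weighs most on Cd68, Timd4 and Adgre1. In bulk liver RNA, a change in the number of macrophages and a change in RNA per macrophage cannot be told apart.

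With shChREBP in L-G6pc-/- livers, 3 of the 10 markers rose: C1qa, C1qc and Clec4f. None fell, against 3.33% of all genes called higher (edgeR's quasi-likelihood test, Benjamini-Hochberg adjusted p under 0.05 over all genes, two-sided, as throughout). The log2 fold change was positive for 9 of 10 markers, with a median of 0.38 against 0.01 over all genes. When shChREBP/L-G6pc-/- livers were set against shSCR/L-G6pc+/+ livers, Clec4f, C1qc and Cd5l were higher. These were 3 of 10 against 6.87% of all genes called higher, and the log2 fold change was positive for all 10 (median 0.43 against 0.01 over all genes). These 2 comparisons share the shChREBP/L-G6pc-/- libraries.

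No marker passed the test for shSCR/L-G6pc-/- against shSCR/L-G6pc+/+, where 3.23% of all genes were called in either direction. Marco was the 1 marker at an unadjusted p under 0.05, and DESeq2 and limma-voom also called 0. The markers' median was 0.00, as was that of all genes, and 5 of 10 log2 fold changes were positive. With shChREBP in L-G6pc+/+ livers edgeR called 0 of 10 against 5.39% of all genes in either direction, although 9 of 10 log2 fold changes were positive (median 0.28 against 0.03 over all genes). Here Adgre1, C1qc, C1qa and Clec4f, 4 in all, were at an unadjusted p under 0.05. DESeq2 called 1 (Adgre1) and limma-voom 0.

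The difference between the shChREBP effects of the 2 genotypes was not called for any marker (0 of 10 by edgeR, DESeq2 and limma-voom, against 0.0786% of all genes by edgeR), and none was at an unadjusted p under 0.05. Its 95% interval was -0.17 to 0.63 for C1qa, -0.38 to 0.47 for C1qc and -0.17 to 0.64 for Clec4f on the log2 scale, so passing in one genotype and not in the other does not show that the genotypes differ. Against shChREBP/L-G6pc+/+ livers, shChREBP/L-G6pc-/- livers differed in 0 of 10 markers by edgeR, DESeq2 and limma-voom, where 6.14% of all genes were called higher and 4.90% lower. There, 3 markers were at an unadjusted p under 0.05, Adgre1, Cd5l and Cd68.

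**Figure D1:**
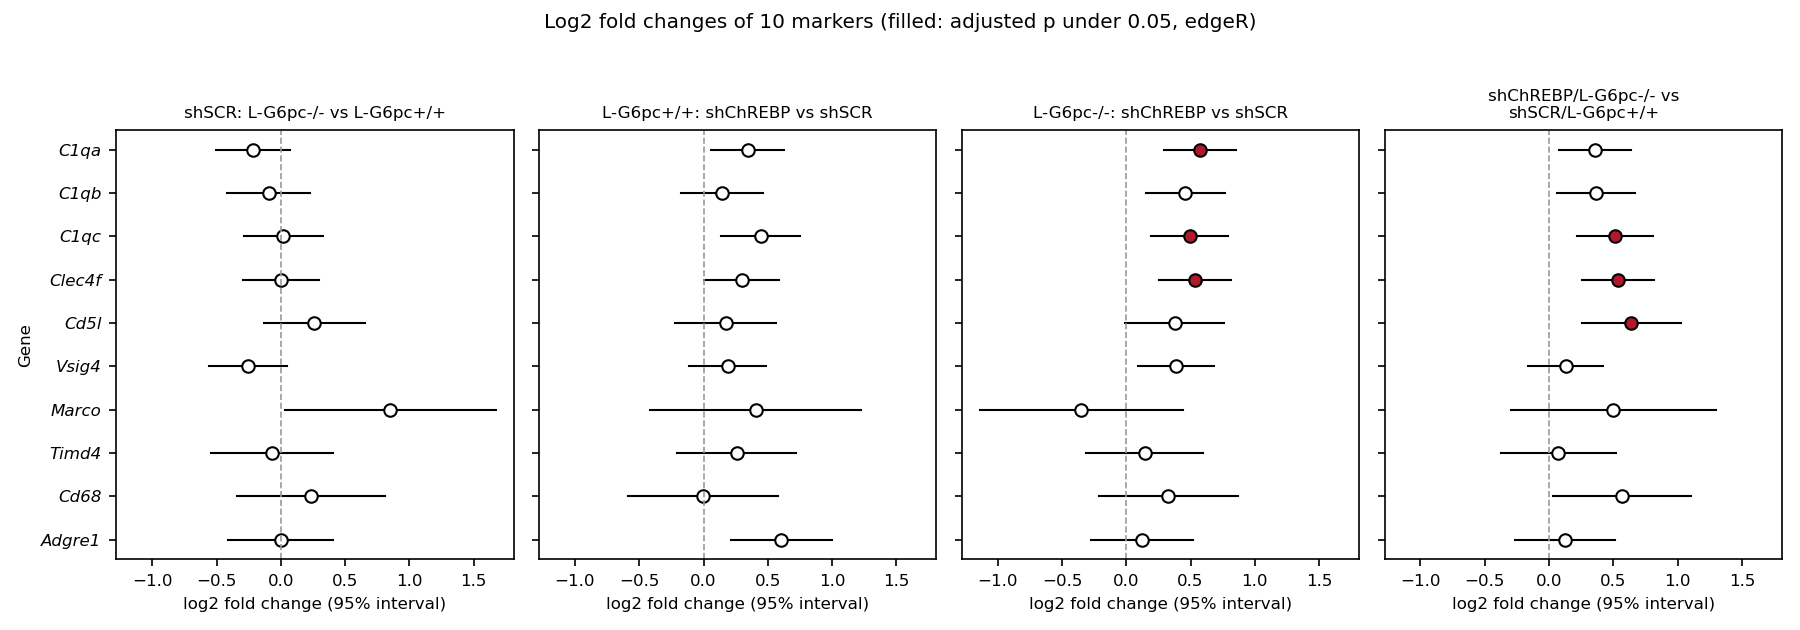
Log2 fold change of each of the 10 markers in 4 comparisons, with lines for the 95% interval and filled symbols for an adjusted p under 0.05 (edgeR over 10179 genes). Filled symbols stand at C1qa, C1qc and Clec4f for shChREBP in L-G6pc-/- livers and at Clec4f, C1qc and Cd5l for shChREBP/L-G6pc-/- against shSCR/L-G6pc+/+ livers, and Marco has the widest intervals.

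Of the C1q chains, C1qa and C1qc rose with shChREBP in L-G6pc-/- livers and C1qb stayed just short of the threshold. C1qa, the A chain, had a lowest, median and highest value of 131, 181 and 288 CPM in shSCR/L-G6pc-/- and 224, 285 and 371 CPM in shChREBP/L-G6pc-/- libraries. All 9 shChREBP libraries lay above the median of the shSCR group and 3 lay above its highest library, s19, so the groups overlapped. The mean went from 191 ± 50.2 (SD, n = 8) to 285 ± 49.0 CPM (SD, n = 9). On the log2 scale C1qa was higher by 0.58 ± 0.14 (standard error; adjusted p = 0.00645, edgeR).

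In L-G6pc+/+ livers C1qa lay at 177, 216 and 274 CPM (lowest, median and highest) with shSCR and at 214, 277 and 387 CPM with shChREBP. Here 4 of 8 shChREBP libraries exceeded every shSCR library, and the log2 fold change of 0.34 (standard error 0.14) did not pass (adjusted p = 0.137, edgeR). The shSCR/L-G6pc-/- mean was the lowest of the 4 groups, but the log2 fold change of -0.22 to shSCR/L-G6pc+/+ (222 ± 35.8 CPM, SD, n = 8) did not pass either (adjusted p = 0.516, edgeR). The 2 shChREBP groups had means of 282 ± 61.5 (SD, n = 8) and 285 CPM and a log2 fold change of 0.02 between them.

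C1qc, the C chain, lay at 38.6, 55.0 and 71.8 CPM (lowest, median and highest) in shSCR/L-G6pc-/- and at 63.3, 78.7 and 99.1 CPM in shChREBP/L-G6pc-/- libraries. It lay above the shSCR median in 9 of 9 shChREBP libraries and above the highest shSCR library, s20, in 6. C1qc thereby rose by 0.49 ± 0.15 (log2 ± its standard error; adjusted p = 0.0288, edgeR). This call was lost when 1 of 5 libraries was left out: s18 (0.45, adjusted p = 0.0657), s23 (0.48, 0.0511), s24 (0.43, 0.0706), s29 (0.47, 0.058) or s30 (0.44, 0.07). In L-G6pc+/+ livers C1qc lay at 44.7, 53.6 and 65.9 CPM with shSCR and at 49.8, 64.8 and 125 CPM with shChREBP, where s13 and s11 were the highest libraries. Here the difference was 0.44 ± 0.15 (log2 ± its standard error; adjusted p = 0.0692, edgeR), and it passed without s12 (0.51, adjusted p = 0.0358) or without s14 (0.50, adjusted p = 0.0476). Against shSCR/L-G6pc+/+, C1qc was higher in shChREBP/L-G6pc-/- livers by 0.51 (standard error 0.14, adjusted p = 0.0142, edgeR), with 7 of 9 libraries above every shSCR/L-G6pc+/+ library.

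C1qb, the B chain, lay at 16.2, 26.8 and 33.3 CPM (lowest, median and highest) in shSCR/L-G6pc-/- and at 26.1, 36.9 and 39.4 CPM in shChREBP/L-G6pc-/- libraries. In the latter group 7 of 9 libraries exceeded every shSCR library, and s33 was low. C1qb differed by 0.46 ± 0.15 (log2 ± its standard error; adjusted p = 0.0541, edgeR). It passed by DESeq2 (adjusted p = 0.0411), by limma-voom (adjusted p = 0.0384) and without s13 (0.46, adjusted p = 0.0302), s15 (0.46, adjusted p = 0.0461), s17 (0.52, adjusted p = 0.038), s21 (0.51, adjusted p = 0.0449) or s33 (0.51, adjusted p = 0.034) in edgeR. In L-G6pc+/+ livers the means were 27.8 ± 4.75 with shSCR and 30.8 ± 9.85 CPM with shChREBP (SD, n = 8 and 8), with a log2 fold change of 0.14 (adjusted p = 0.639, edgeR). The C1q chains thus shared the positive sign in both genotypes, while 2 of 3 passed in L-G6pc-/- and 0 of 3 in L-G6pc+/+ livers.

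**Figure D2:**
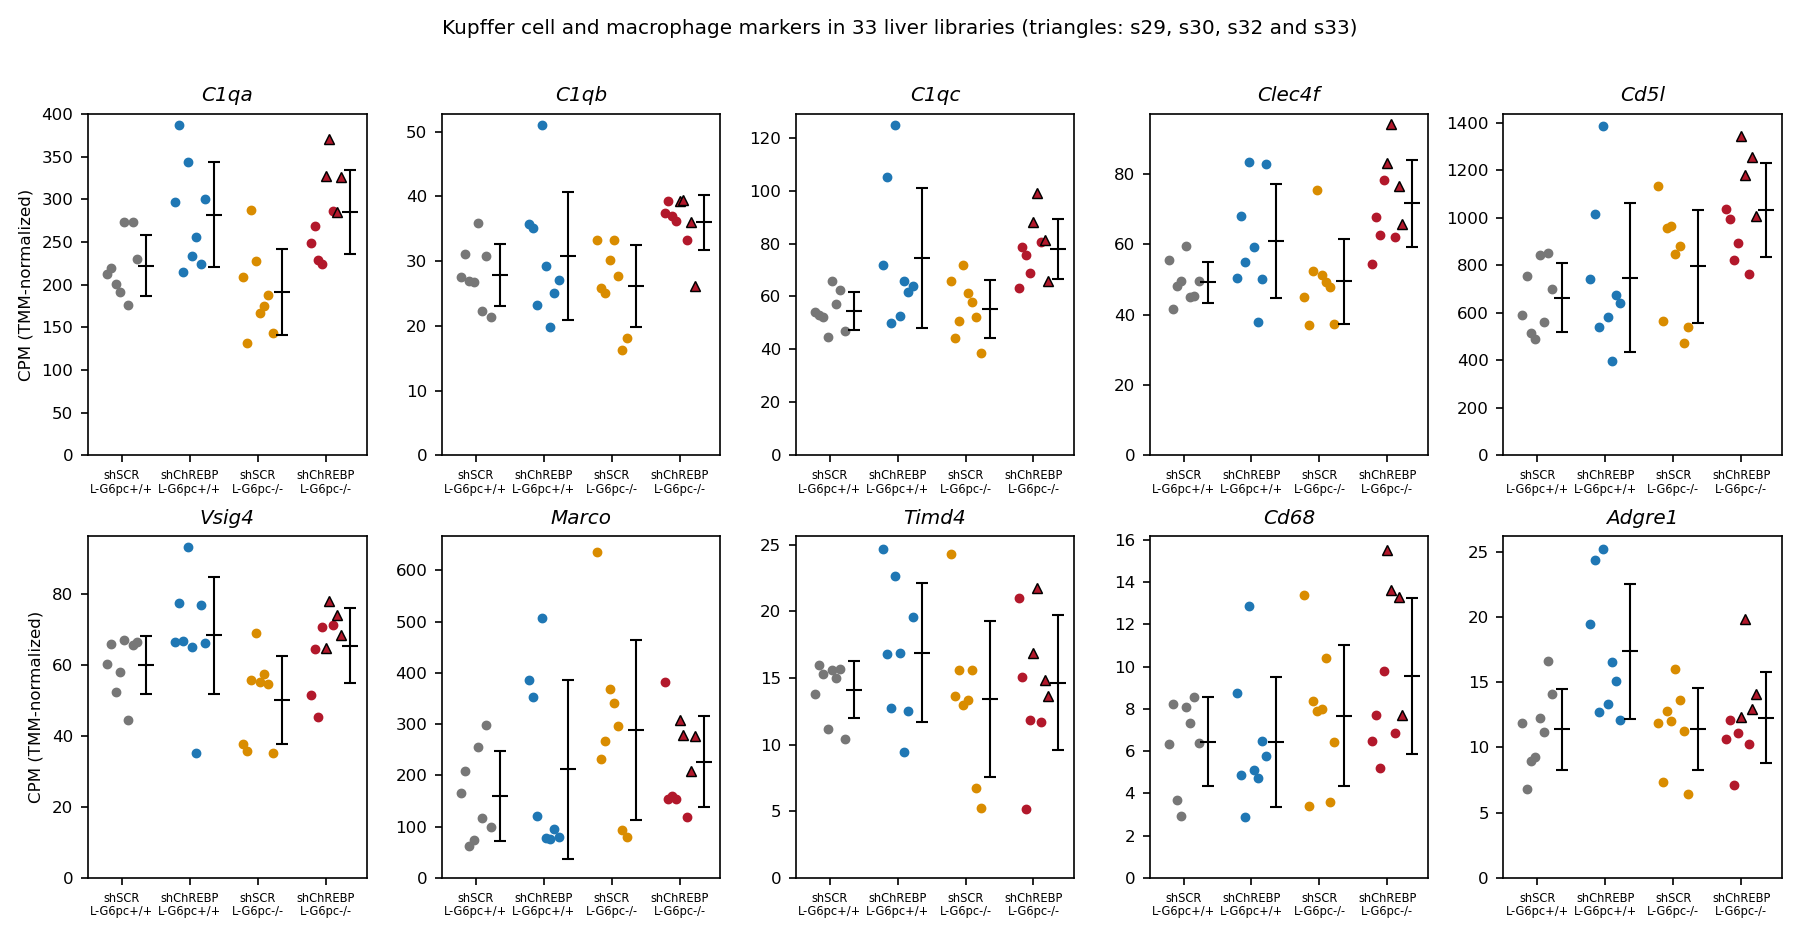
Level of each marker in CPM, split by group. Each point is 1 of the 33 libraries, triangles are s29, s30, s32 and s33, and the bars give mean ± SD. The groups overlap for every marker, the shChREBP/L-G6pc-/- group has the highest mean for C1qa, C1qb, C1qc, Clec4f, Cd5l and Cd68, and Marco spreads from 61.8 to 636 CPM.

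Clec4f, a C-type lectin receptor that in mice is made almost only by Kupffer cells, was another marker that rose when shChREBP was given to L-G6pc-/- mice. Its level was 37.1, 48.6 and 75.5 CPM (lowest, median and highest) with shSCR and at 54.5, 67.7 and 94.3 CPM with shChREBP. All 9 shChREBP libraries were above the shSCR median, 4 were above the highest shSCR library, s20, and s30 and s29 were the highest. Clec4f rose by 0.54 ± 0.14 (log2 ± its standard error; adjusted p = 0.0123, edgeR). In L-G6pc+/+ livers Clec4f lay at 41.6, 48.8 and 59.5 CPM with shSCR and at 37.9, 57.2 and 83.4 CPM with shChREBP. The wider spread in the latter group came with s9 and s13 at the top and s15 at the bottom, and the log2 fold change of 0.30 (standard error 0.14) did not pass (adjusted p = 0.217, edgeR). The 2 shSCR groups had means of 49.3 ± 5.81 and 49.5 ± 12 CPM (SD, n = 8 and 8). Of the 9 shChREBP/L-G6pc-/- libraries, 8 lay above every shSCR/L-G6pc+/+ library, and Clec4f was higher than in that group by 0.54 ± 0.14 (log2 ± its standard error; adjusted p = 0.0064, edgeR).

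Cd5l encodes a secreted scavenger receptor protein, also called AIM, that macrophages release into the blood. It lay at 488, 646 and 854 CPM (lowest, median and highest) in shSCR/L-G6pc+/+ and at 473, 865 and 1133 CPM in shSCR/L-G6pc-/- libraries. With shChREBP it lay at 396, 659 and 1388 CPM in L-G6pc+/+ and at 762, 1010 and 1344 CPM in L-G6pc-/- libraries. The group means rank both L-G6pc+/+ groups below both L-G6pc-/- groups, each time with shSCR below shChREBP, and neighbouring groups in this order overlapped. The log2 fold change between the outer groups was 0.64 ± 0.19 (standard error; adjusted p = 0.0191, edgeR), with 7 of 9 shChREBP/L-G6pc-/- libraries above every shSCR/L-G6pc+/+ library. The 2 steps with shChREBP, 0.17 in L-G6pc+/+ (adjusted p = 0.645, edgeR) and 0.38 in L-G6pc-/- (adjusted p = 0.228, edgeR), did not pass. Between the shChREBP groups the log2 fold change was 0.47 (adjusted p = 0.104, edgeR). It passed once s13, the library with the highest Cd5l of all, was left out (0.66, adjusted p = 0.0113). Without both s9 and s13 it was 0.65 (adjusted p = 0.02), and Clec4f passed as well (0.43, adjusted p = 0.0338, against 0.24 and 0.27 with all libraries). As s13 and s9 had the highest Clec4f of the shChREBP/L-G6pc+/+ group, leaving them out raises this difference by itself.

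Vsig4, a complement receptor (CRIg) that binds fragments of C3, lay at 35.1, 54.9 and 69.0 CPM (lowest, median and highest) in shSCR/L-G6pc-/- and at 45.3, 68.4 and 78.1 CPM in shChREBP/L-G6pc-/- libraries. Of the 9 shChREBP libraries 7 lay above the shSCR median, and the log2 fold change of 0.39 (standard error 0.14) did not pass (adjusted p = 0.0901, edgeR). It passed without s20 (0.46, adjusted p = 0.0409). In L-G6pc+/+ livers the means were 59.9 ± 8.15 with shSCR and 68.3 ± 16.5 CPM with shChREBP (SD, n = 8 and 8, log2 fold change 0.19, adjusted p = 0.481, edgeR).

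Marco, a scavenger receptor for bacteria and particles, varied more between libraries, relative to its mean, than the other 9 markers. It lay at 61.8, 141 and 299 CPM (lowest, median and highest) in shSCR/L-G6pc+/+ and at 79.5, 282 and 636 CPM in shSCR/L-G6pc-/- libraries. The upper end was set by s17, and 6 of 8 shSCR/L-G6pc-/- libraries exceeded the shSCR/L-G6pc+/+ median. The log2 fold change was 0.85 with a standard error of 0.40 (adjusted p = 0.31, edgeR). With shChREBP it lay at 75.3, 108 and 507 CPM in L-G6pc+/+ and at 118, 208 and 383 CPM in L-G6pc-/- libraries. In L-G6pc-/- livers Marco was the 1 marker with a negative log2 fold change with shChREBP, -0.35, whose 95% interval ran from -1.14 to 0.44 (adjusted p = 0.645, edgeR).

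Timd4 encodes a phosphatidylserine receptor for the uptake of dying cells. Its group means were 14.1 ± 2.15 (SD, n = 8) and 16.9 ± 5.24 CPM (SD, n = 8) in L-G6pc+/+ livers with shSCR and shChREBP. They were 13.4 ± 5.84 (SD, n = 8) and 14.7 ± 5.03 CPM (SD, n = 9) in L-G6pc-/- livers. The log2 fold changes over the 6 comparisons lay between -0.19 and 0.26, and none passed. Timd4 therefore had no called difference at a depth at which its libraries spread from 5.18 to 24.7 CPM.

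Neither of the 2 general macrophage markers passed a test by edgeR with all libraries. Adgre1, an adhesion receptor, lay at 6.85, 11.5 and 16.7 CPM (lowest, median and highest) in shSCR/L-G6pc+/+ and at 12.1, 15.8 and 25.2 CPM in shChREBP/L-G6pc+/+ libraries. All 8 shChREBP libraries lay above the shSCR median and 3 above the highest shSCR library, s7. The log2 fold change of 0.61 (standard error 0.19) missed the threshold (adjusted p = 0.0552, edgeR). It passed by DESeq2 (0.60, adjusted p = 0.0386) and when 1 of 7 libraries was left out, s7 (0.69, adjusted p = 0.0391), s8 (0.65, 0.045), s9 (0.65, 0.0446), s12 (0.65, 0.0425), s24 (0.60, 0.0489), s27 (0.61, 0.0497) or s30 (0.61, 0.0411).

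In L-G6pc-/- livers Adgre1 lay at 6.43, 12 and 16 CPM with shSCR and at 7.12, 12.1 and 19.9 CPM with shChREBP, a log2 difference of 0.12 ± 0.19 (standard error; adjusted p = 0.769, edgeR). Of the 9 shChREBP/L-G6pc-/- libraries 4 lay below every shChREBP/L-G6pc+/+ library, and the log2 fold change between these groups was -0.48 (standard error 0.19, adjusted p = 0.0851, edgeR). It was -0.60 and passed without s30 (adjusted p = 0.029). The difference of the shChREBP effects between genotypes was also -0.48 for Adgre1 (standard error 0.27, adjusted p = 0.498, edgeR).

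Cd68, an endosomal and lysosomal glycoprotein, had the fewest counts. In L-G6pc+/+ livers its mean was 6.44 ± 2.11 CPM with shSCR and 6.43 ± 3.09 CPM with shChREBP (SD, n = 8 each). In L-G6pc-/- livers it was 7.68 ± 3.32 CPM with shSCR (SD, n = 8) and 9.57 ± 3.69 CPM with shChREBP (SD, n = 9). The largest log2 fold changes, 0.57 for shChREBP/L-G6pc-/- against either L-G6pc+/+ group, did not pass (adjusted p = 0.165 with shSCR and 0.171 with shChREBP, edgeR). Within the shChREBP/L-G6pc-/- group, s29, s30 and s32 were the highest libraries, at 13.3 to 15.5 CPM.

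The calls above were lost without the 4 libraries that stood apart, which leaves 5 in the shChREBP/L-G6pc-/- group. Without s29, s30, s32 and s33 no marker passed that comparison, and the log2 fold change was 0.40 for C1qa (adjusted p = 0.239), 0.41 for C1qc (0.296) and 0.40 for Clec4f (0.259). C1qb was at 0.49, and 6 of 10 log2 fold changes were positive. Without them no marker passed against shSCR/L-G6pc+/+ livers either, with 0.43 for C1qc (adjusted p = 0.179), 0.40 for Clec4f (0.17) and 0.45 for Cd5l (0.314). The genes called over all 10179 fell at the same time from 770 to 106 with shChREBP in L-G6pc-/- livers and from 1347 to 321 against shSCR/L-G6pc+/+ livers. Adgre1 passed 2 comparisons without them, at 0.60 with shChREBP in L-G6pc+/+ livers (adjusted p = 0.0421) and at -0.73 for shChREBP/L-G6pc-/- against shChREBP/L-G6pc+/+ livers (adjusted p = 0.0313).

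Within the shChREBP/L-G6pc-/- group the median of the 4 libraries was above that of the other 5 for every marker. Only for Adgre1 were the ranges apart, at 12.3 to 19.9 CPM in the 4 and 7.12 to 12.1 CPM in the other 5. For the other markers the 4 libraries did not hold all the high values. C1qa lay at 285 to 371 CPM in the 4 and at 224 to 286 CPM in the other 5, and Cd5l at 1010 to 1344 against 762 to 1039 CPM. Clec4f overlapped more, at 65.8 to 94.3 against 54.5 to 78.3 CPM. C1qb lay at 26.1 to 39.4 CPM in the 4 and at 33.2 to 39.4 CPM in the others, so both ranges ended at about the same value.

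**Figure D3:**
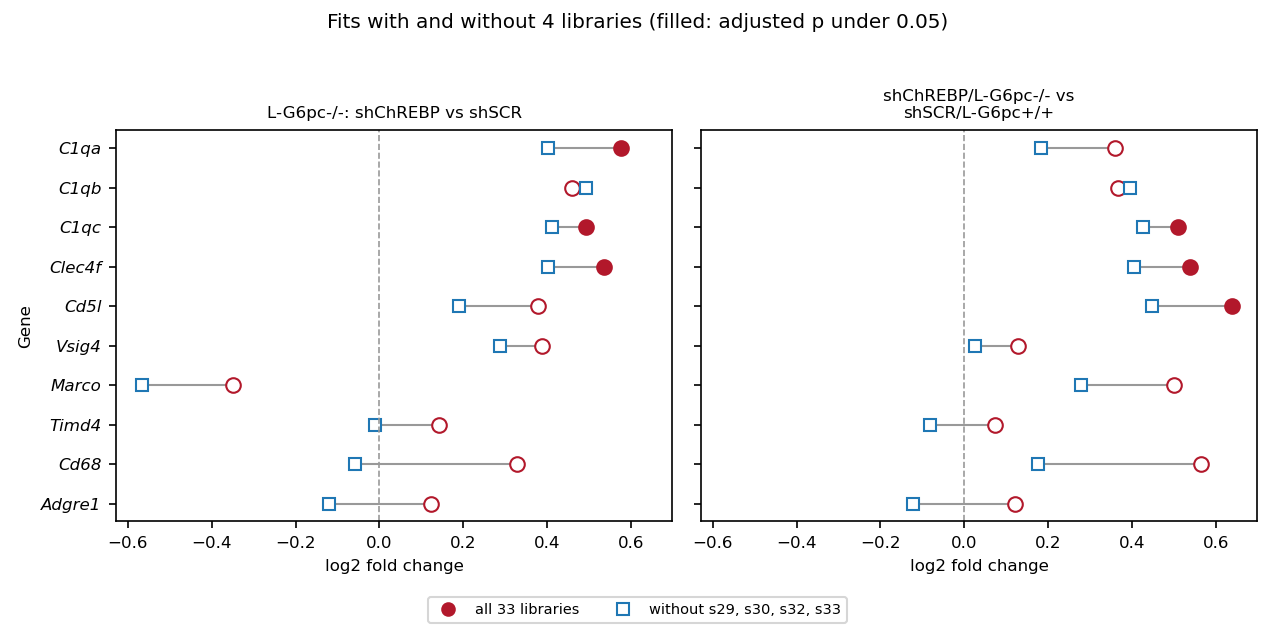
Log2 fold change of each marker with all 33 libraries (circles) and without s29, s30, s32 and s33 (squares), for shChREBP in L-G6pc-/- livers on the left and shChREBP/L-G6pc-/- against shSCR/L-G6pc+/+ livers on the right, with filled symbols for an adjusted p under 0.05. No square is filled, most squares lie to the left of their circles, C1qb is nearly in place, and Timd4 and Adgre1 cross 0 in both panels and Cd68 on the left.

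Markers of other cells moved along with these calls. The summed level of 19 hepatocyte markers was 53057 to 64943 CPM in shSCR/L-G6pc+/+, 43105 to 63202 in shChREBP/L-G6pc+/+, 43179 to 59998 in shSCR/L-G6pc-/- and 29746 to 51987 CPM in shChREBP/L-G6pc-/- libraries. Within the last group it was 29746 to 35159 CPM in s29, s30, s32 and s33 and 39060 to 51987 CPM in the other 5. With shChREBP in L-G6pc-/- livers 6 of the 19 were lower (Apoc3, Alb, Ttr, Apoa2, Ahsg and Fgb, against 4.23% of all genes called lower) and 0 higher, with a median of -0.38. Alb carries the Cre insertion in both L-G6pc-/- groups and in neither L-G6pc+/+ group. Between the genotypes, the insertion and the loss of G6pc therefore cannot be told apart for Alb, which was also called between the shSCR groups. The hepatocyte list also includes G6pc, the gene targeted in L-G6pc-/- livers. Against shSCR/L-G6pc+/+ livers 7 of 19 were lower, against 6.37% of all genes, and without the 4 libraries 2 were (Alb and Ahsg), with a median of -0.14. CPM is a share of the library, and the part of the hepatocyte markers in the marker results was not tested. Without the 4 libraries 1 of 19, Apoc3, was lower with shChREBP in L-G6pc-/- livers, with a median of -0.20 for the list and 0.24 for the 10 markers.

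The 10 markers varied together from library to library. Deviations from the group means of log2 CPM were positively correlated in all 45 pairs over the 33 libraries, with Pearson's r from 0.30 to 0.85 and a median of 0.57. Of the 45, 38 passed a permutation test of r within groups (100000 permutations, Benjamini-Hochberg adjusted over the 45) and 37 passed for Spearman's rho as well. How many pairs of other genes would pass was not tested, so these counts do not show that the correlation is particular to the markers. The pair Cd5l and Marco had the highest r, 0.85 (rho 0.84, permutation p = 1e-05, the smallest that these permutations can give, adjusted p = 9e-05), and r was 0.82 without the 2 most extreme libraries for Cd5l, s13 and s15. Clec4f and Vsig4 had an r of 0.72 (rho 0.61, adjusted permutation p = 9e-05 and 0.00106), and 0.60 without s20 and s15. C1qa and C1qb, neighbours in the genome, had an r of 0.39 (rho 0.43, adjusted permutation p = 0.0515 and 0.0288). Clec4f and Marco had the lowest r, 0.30 (rho 0.26, adjusted permutation p = 0.139 and 0.181). Vsig4 and Timd4 had an r of 0.34 (adjusted permutation p = 0.0883), which rested on s15 and s27 and was 0.05 without them. The values of one library share its depth and its tissue piece. Without s29, s30, s32 and s33 the r of the 45 pairs ran from 0.27 to 0.85 with a median of 0.54.

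**Figure D4:**
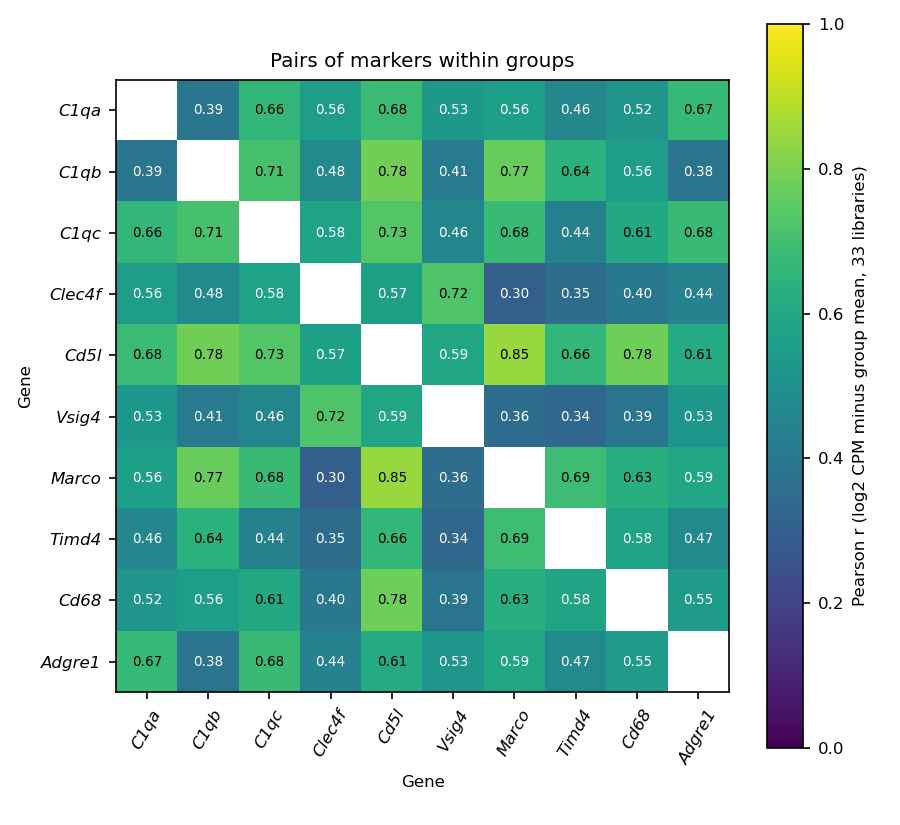
Pearson's r between the 10 markers over 33 libraries, computed on deviations of log2 CPM from the group means, with lighter, yellower cells for higher r and the diagonal left blank. Every cell is positive, from 0.30 for Clec4f with Marco to 0.85 for Cd5l with Marco.

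Some libraries carried high or low values for many of the markers at once. s13 was the highest shChREBP/L-G6pc+/+ library for 8 of 10 markers, and s15 the lowest of that group for 6. s30 was the highest shChREBP/L-G6pc-/- library for 7 markers and s27 the lowest for 4. In shSCR/L-G6pc-/- libraries s24 was the lowest for 5 and s17 the highest for 4, and in shSCR/L-G6pc+/+ libraries s7 was the highest for 5 and s5 for 4. The sum of the 10 markers ran from 955 to 1673 CPM in shSCR/L-G6pc+/+, 916 to 2653 in shChREBP/L-G6pc+/+, 911 to 2211 in shSCR/L-G6pc-/- and 1442 to 2300 CPM in shChREBP/L-G6pc-/- libraries. Cd5l alone made up 53.2% of this sum on average.

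Among 9343 other genes with a mean of at least 5 CPM, those whose deviations followed the mean of the 10 markers most closely over the 33 libraries were Laptm5 (r = 0.83), Cybb (0.82), Hp (0.82), Dmpk (0.79), Ctss (0.79), Arpc1b (0.79), Plek (0.79) and Aif1 (0.78). Laptm5, Cybb, Ctss, Plek and Aif1 are expressed in myeloid cells, where Cybb encodes the oxidase subunit of phagocytes and Ctss a lysosomal protease. Hp encodes haptoglobin, an acute phase protein of hepatocytes. Laptm5 was also higher in shChREBP/L-G6pc-/- than in shSCR/L-G6pc+/+ livers (log2 fold change 0.50, adjusted p = 0.0452, edgeR).

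Of 27 other measured genes of resident macrophages, 4 rose with shChREBP in L-G6pc-/- livers (median 0.28), against 3.33% of all genes called higher. In L-G6pc+/+ livers 3 rose (median 0.35), against 2.16% of all genes called higher. None fell in either genotype. Lgals3bp, a secreted glycoprotein that binds galectins, rose in both, by 0.67 in L-G6pc-/- (adjusted p = 0.012, edgeR) and by 0.75 in L-G6pc+/+ livers (adjusted p = 0.0141, edgeR). Slc40a1, the iron exporter ferroportin, rose by 0.51 (adjusted p = 0.0122, edgeR) and 0.45 (adjusted p = 0.0399, edgeR). Spi1, which encodes PU.1, rose by 0.99 (adjusted p = 0.0128, edgeR) and Fcna, a ficolin of macrophages, by 0.47 (adjusted p = 0.0261, edgeR) in L-G6pc-/- livers. The transcription factor gene Maf rose by 0.41 in L-G6pc+/+ livers (adjusted p = 0.01, edgeR). Csf1r, the receptor that macrophages need to survive, had log2 fold changes of 0.14 and 0.33 that did not pass (adjusted p = 0.584 in L-G6pc-/- and 0.154 in L-G6pc+/+ livers, edgeR). Without s29, s30, s32 and s33 0 of 27 passed in L-G6pc-/- and 4 in L-G6pc+/+ livers. Lgals3bp was the 1 gene of this list called between the shSCR groups, higher in L-G6pc-/- livers by 0.73 (adjusted p = 0.0188, edgeR).

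Against shSCR/L-G6pc+/+ livers, shChREBP/L-G6pc-/- livers had 8 of the 27 higher, among them Lgals3bp (1.40), Il18bp, a binding protein of interleukin 18 (1.14), Slc11a1, a metal transporter of phagosomes (0.82), and Folr2, a folate receptor of resident macrophages (0.67). Here 6.87% of all genes were called higher. The 8 became 4 without s3, s4, s6 or s30 and 5 without s33, and without the 4 libraries this was 1 of 27, Lgals3bp. Of 26 measured pan-myeloid genes 6 were higher there (Ctsd, Mpeg1, Tyrobp, Fcgr4, Grn and Laptm5), against 1 with shChREBP in L-G6pc-/- livers, the Fc receptor gene Fcgr4 (0.94, adjusted p = 0.00536, edgeR). The shares of all genes called higher were 6.87% and 3.33%, so 1 of 26 was close to the share of all genes. The 6 became 2 without s4 or s32 and 3 without s8 or s30, and the 1 became 3 without s20. In L-G6pc+/+ livers the 1 pan-myeloid gene that passed was Fcgr2b, an inhibitory Fc receptor that sinusoidal endothelial cells also express (0.59, adjusted p = 0.0193, edgeR). The pan-myeloid sum was 3366 to 4131 CPM in s29, s30, s32 and s33 and 2600 to 3062 CPM in the other 5 shChREBP/L-G6pc-/- libraries, and without the 4 libraries 0 of the pan-myeloid genes passed in either of these L-G6pc-/- comparisons.

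Of 13 measured genes of monocyte-derived and lipid-associated macrophages, 2 rose with shChREBP in L-G6pc-/- livers, against 3.33% of all genes called higher. They were Ms4a6c (0.86, adjusted p = 0.0098, edgeR) and the lysosomal tetraspanin gene Cd63 (0.82, adjusted p = 0.0281, edgeR). The list's median was 0.47, and its count was 1 without s18, s21, s22, s23, s24, s30 or s32 and 4 without s20. Against shSCR/L-G6pc+/+ livers 6 were higher, Ms4a6c, Cd63, Lgals3, Spp1, Plac8 and Cd9, with a median of 0.94. There, 6.87% of all genes were called higher, and the count was 4 to 7 with each library left out in turn. Spp1 is also in the cholangiocyte list. Cd9 was already higher in shSCR/L-G6pc-/- than in shSCR/L-G6pc+/+ livers (1.44, adjusted p = 0.0034, edgeR). None of the 13 rose with shChREBP in L-G6pc+/+ livers (median 0.09), against 2.16% of all genes called higher. Without the 4 libraries 0 of 13 passed in L-G6pc-/- livers and 0 against shSCR/L-G6pc+/+ livers. F10, which hepatocytes also express, made up 62.1% of this list's summed level.

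Of 6 measured genes for macrophage growth factors and niche signals none passed with shChREBP in either genotype (edgeR). The ligands of Csf1r, Csf1 and Il34, had log2 fold changes of 0.51 (adjusted p = 0.283) and 0.57 (adjusted p = 0.114) in L-G6pc+/+ and of 0.10 (adjusted p = 0.872) and 0.13 (adjusted p = 0.782) in L-G6pc-/- livers by edgeR. Cxcl12, a chemokine of stromal cells, was at -0.30 and -0.36 (adjusted p = 0.32 and 0.201), and Gdf2, which encodes BMP9, at -0.03 and 0.34 (adjusted p = 0.936 and 0.161) in the same order. Ccl2, which recruits monocytes, was higher in shChREBP/L-G6pc-/- than in shSCR/L-G6pc+/+ livers by 1.82 (standard error 0.46, adjusted p = 0.00594, edgeR), and it did not pass without the 4 libraries. Of 17 efferocytosis and scavenger receptor genes, which include Timd4 and Marco, Cd300lf (0.89, adjusted p = 0.023), the bridging protein gene Mfge8 (0.46, adjusted p = 0.04) and Msr1 (0.53, adjusted p = 0.0489) rose with shChREBP in L-G6pc-/- livers by edgeR, against 3.33% of all genes. This count of 3 rested on single libraries, since it was 0 without s30, 1 without s18, s21, s29, s32 or s33 and 5 without s19, and it was 0 without the 4 libraries.

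The complement list, which includes the C1q chains, was split. Of 26 measured genes 3 rose with shChREBP in L-G6pc-/- livers, C1qa, C1qc and C8b (0.75, adjusted p = 0.00358, edgeR), against 3.33% of all genes called higher, and 6 fell, against 4.23% of all genes called lower. The list's median was -0.14. C3, the central component, fell by 0.44 on the log2 scale (adjusted p = 0.00688, edgeR) and Serping1, the C1 inhibitor, fell by 0.31 (adjusted p = 0.0456, edgeR). C8b, C3 and Serping1 are expressed by hepatocytes. Without the 4 libraries 0 of the complement genes passed in either direction.

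Of the other lists with shChREBP in L-G6pc-/- livers, 1 of 18 sinusoidal endothelial genes (Pecam1), 1 of 17 stellate cell genes (Bgn) and 1 of 3 measured dendritic cell genes (Irf8, 0.62, adjusted p = 0.0221, edgeR) rose, against 3.33% of all genes called higher, and 0 did in all 3 lists without the 4 libraries. Pecam1 was also lost without s18, s20, s21, s22, s30, s32 or s33, and Irf8 without s18, s23, s24, s29 or s30, while the stellate cell count was 3 without s20. Most log2 fold changes in these lists were positive, in 15 of 18 endothelial genes (median 0.14), 16 of 17 stellate cell genes (0.33), 3 of 3 dendritic cell genes (0.43), 5 of 5 cholangiocyte genes (0.37) and 3 of 3 B and plasma cell genes (0.47). Fewer were positive among neutrophil genes, 3 of 5 (0.30), and T and NK cell genes, 1 of 2 (0.21). The median over all genes was 0.01. The positive sign was thus not particular to the macrophage lists. Of 5 cholangiocyte, 2 T and NK cell and 3 B and plasma cell genes 0 passed in either direction. Of 5 neutrophil genes 1 fell (Wfdc21), against 4.23% of all genes called lower, and 0 passed without the 4 libraries. Wfdc21 made up 96.0% of that list's sum. Irf8 is also expressed in macrophages.

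**Figure D5:**
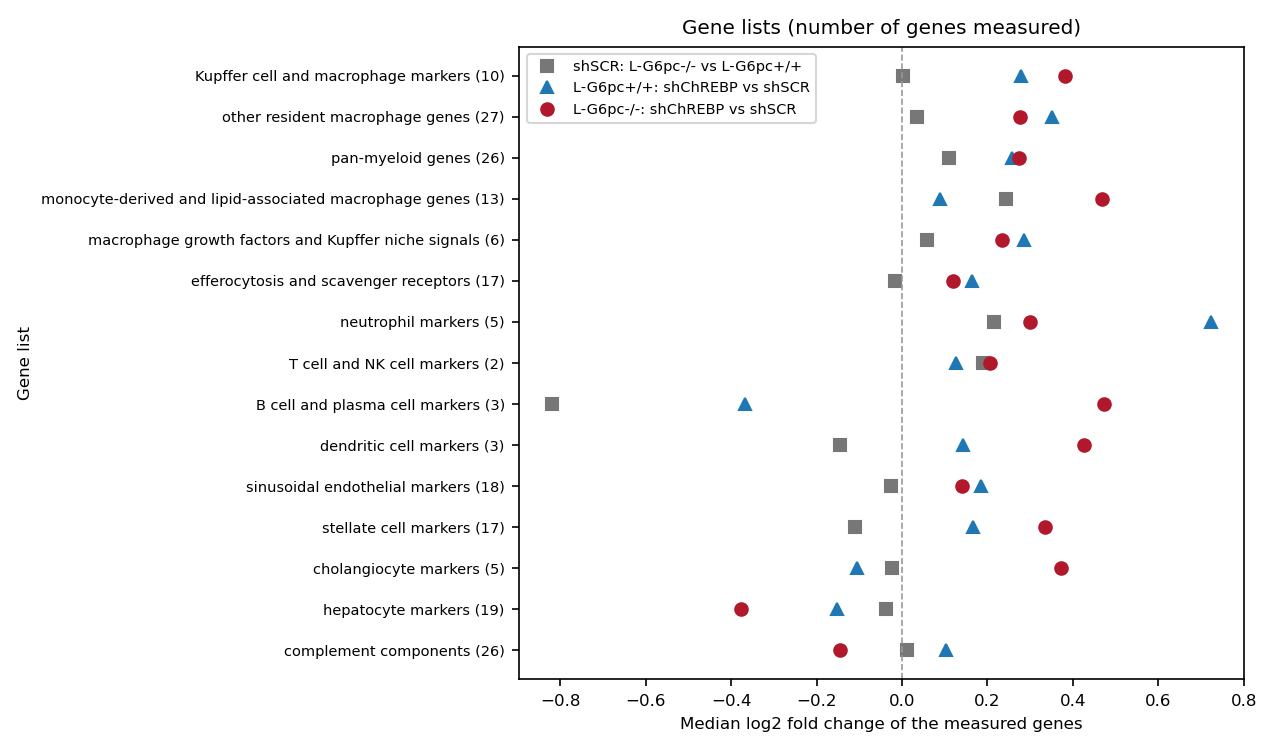
Median log2 fold change of the measured genes of each list in 3 comparisons, with the number of genes measured in brackets. With shChREBP in L-G6pc-/- livers (circles) the macrophage lists and the lists of all other cell types except hepatocytes lie to the right of 0, the complement list is at -0.14 and the hepatocyte markers are at -0.38, and in the comparison of the shSCR groups (squares) the 10 markers lie at 0.00.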

How the data were processed

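Liver RNA of 33 libraries was sequenced from 3′ ends (QuantSeq). The authors aligned reads to GRCm38 with HISAT and, after sorting by SAMtools, counted genes with HTSeq (versions and strand setting not given in the sources used here). They deposited raw counts and a voom (limma) table, unit signal, which holds linear values proportional to count + 0.5 in each library, so its log2 was taken, where log2 values had been planned for. It names Adgre1 as Emr1.

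The deposited counts were named from GENCODE M21 (25817 of 25988 identifiers), filtered with filterByExpr (minimum count 10, minimum total 15), scaled by TMM and fitted for all groups together with edgeR 4.0.16 (R 4.3.3, quasi-likelihood, two-sided, Benjamini-Hochberg threshold 0.05). Intervals are 95% with 29 residual degrees of freedom. Log2 CPM used a prior count of 2. Scripts were tested on simulated data. Members and gene lists were chosen with earlier results of these data known. Named were all 10 members, listed genes that passed, otherwise those with the highest CPM, and the 8 genes most like the members. Csf1r was named after its values were seen. Of 257 list symbols 3 were not found. Alternatives were other scalings, no filter, DESeq2 1.42.0, limma 3.58.1, only the groups compared, each library left out, and leaving out s29, s30, s32 and s33 together, s9 with s13, or the gene Gm42418. Promoters were available here for 8 of the 10 members, not for C1qa and Adgre1. One gene of the complement list is not reported here.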

Additional observations from a re-analysis of the deposited data

Results flagged for a closer look

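Within groups, 3 of 40 sets of values (10 markers in 4 groups) held a library farther from the others than Dixon's 95% limit allows, and chance alone gives about 1 in 20. In shChREBP/L-G6pc-/- livers C1qb was at 26.1 CPM in s33, against 33.2 CPM in the next library. In shChREBP/L-G6pc+/+ livers Vsig4 was at 35.0 CPM in s15, against 65.0 CPM in the next. In shChREBP/L-G6pc-/- livers Timd4 was at 5.18 CPM in s27, against 11.7 CPM in the next. All 3 were the lowest library of their group.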

How the results depend on the processing

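No called log2 fold change reversed. With shChREBP in L-G6pc+/+ livers the count of markers called was 0 with all libraries, 1 with DESeq2, 1 without s29, s30, s32 and s33, and 0 to 2 with each library left out in turn. In L-G6pc-/- livers with shChREBP the count was 3, 5 when libraries were scaled by size only (C1qb and Vsig4 added, with a median of all genes of 0.11), 0 without s29, s30, s32 and s33, and 2 to 4 with each library left out. For shChREBP/L-G6pc-/- against shSCR/L-G6pc+/+ it was 3, 5 when only these groups were fitted (C1qa and C1qb added), 0 without the 4 libraries, and 3 to 3 with each left out. Between the shChREBP groups it was 0, 1 without the 4 libraries (Adgre1), 2 without s9 and s13 (Clec4f and Cd5l), and 0 to 1 with each left out. Over all genes, scaling by size only moved the share of higher among called genes from 68.1% to 57.6% between the shSCR groups, from 44.0% to 75.8% with shChREBP in L-G6pc-/- livers, from 51.9% to 68.2% for shChREBP/L-G6pc-/- against shSCR/L-G6pc+/+, from 55.6% to 74.0% between the shChREBP groups and from 75.0% to 90.9% for the difference of the shChREBP effects. Genes called ranged from 106 to 1119 (770 in the reported fit) with shChREBP in L-G6pc-/- livers, from 321 to 1458 (1347) against shSCR/L-G6pc+/+, from 3 to 73 (8) for the difference of effects, and fell to 316 (549) with shChREBP in L-G6pc+/+ livers without s2. For single log2 fold changes, 2522 alternatives kept the side of the threshold and did not change sign with a shift larger than the standard error. Of the rest, 11 lost a call, 32 gained one and 4 changed sign with a larger shift but without a call. The number of counts limits Cd68, Timd4 and Adgre1 most.

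No paired analysis was possible because the labels give the groups no shared replicate numbers.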
